A study of Homo sapiens with 26 samples.

Results

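The plasminogen activator system genes PLAU, PLAUR, PLAT and SERPINB2 were examined for binding of the glucocorticoid receptor (GR) in A549 cells, a widely used line from a human lung carcinoma that keeps alveolar epithelial features. A 400 bp GR region belonged to these genes when the nearest protein-coding gene start in GENCODE 44 lay within 100 kb of its midpoint and was the start of one of the 4 genes. Of 10740 regions, 3 met this rule, 2 at PLAU and 1 at PLAUR, and PLAT and SERPINB2 had none. Cells were infected with an adenovirus carrying IκBαΔN (Ad-IκBαΔN), a truncated IκBα that resists degradation and keeps NF-κB inactive, or green fluorescent protein (Ad-GFP, the control virus). Cells of each virus were given 300 nM budesonide plus 1 ng/ml interleukin-1β (IL1B+Bud), 300 nM budesonide alone (Bud), or nothing (NS), for 1 h. All 6 groups thus carried an adenovirus, and every cell came from 1 tumour line. ChIP measures the receptor on chromatin and not the genes' transcripts, so no expression level of the 4 genes was measured.

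Plasminogen activators cut the circulating zymogen plasminogen into plasmin, a protease that dissolves fibrin and degrades extracellular matrix. PLAU encodes urokinase (uPA), PLAT encodes tissue plasminogen activator (tPA), and PLAUR encodes the membrane-anchored receptor that holds urokinase at the cell surface. SERPINB2 encodes plasminogen activator inhibitor 2, an inhibitor of urokinase. In lung epithelium the system takes part in clearing fibrin from the airspace and in wound repair. Inflammatory cytokines and glucocorticoids are both known to alter the expression of its genes, and GR binds DNA at glucocorticoid response elements (GREs) or is held there through other factors such as NF-κB and AP-1.

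The values were the authors' log2 binding intensities, 1 per region and group, read here as log2 of the mean coverage of a region plus 1. Signals are given below on the linear scale, without the added 1, and log2 differences on the deposited scale. The labels list 2 GR libraries per group, but the table holds 1 value for each group. No value therefore has an SD, no difference could be set against replicate error, and all comparisons are descriptions. A region was counted as higher or lower when its log2 difference was at least 1 in size, which is 2-fold. The scale was not the same in every group. Summed coverage moved in whole steps of 1.5 in Ad-IκBαΔN cells given IL1B+Bud, and of 1 in those given Bud. With Ad-GFP the steps were 3 for IL1B+Bud and 1 for Bud. Values with these steps divided out, or ranges over several scalings, are therefore given beside many of the results they move. At control loci, the region with the highest signal in Ad-GFP cells given IL1B+Bud was compared between IL1B+Bud and Bud (log2). At the NF-κB targets CXCL8, TNFAIP3 and NFKBIA the differences were -0.20, -0.58 and -0.32 in Ad-IκBαΔN, against 3.97, 3.02 and -0.50 in Ad-GFP. The NFKBIA region was already strong with Bud alone, at 668 in Ad-IκBαΔN and 871 in Ad-GFP, against 9.04 and 14.5 untreated. At the glucocorticoid targets FKBP5 and PER1 the differences between IL1B+Bud and Bud were 0.25 and 1.15 in Ad-IκBαΔN, against -0.92 and -1.02 in Ad-GFP. Over the scalings those in Ad-IκBαΔN ran between -0.33 and 0.25 at FKBP5 and between 0.56 and 1.15 at PER1. PTPRC, a gene of blood cells, differed by 0.74 in Ad-IκBαΔN and by 2.47 in Ad-GFP, the second close to the upstream PLAU region described below.

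The first PLAU region lay at chr10:73909071-73909470 (hg38), and its midpoint was 93 bp downstream of the annotated gene start (ENSG00000122861.16, plus strand). It covered the first, untranslated exon of a transcript that starts at 73909177 and the intron that follows. The main transcript starts at 73911132, so the midpoint was 1.86 kb upstream of it. The second PLAU region, at chr10:73892693-73893092, was intergenic, 16.3 kb upstream of the gene start. The PLAUR region, at chr19:43675501-43675900, was intergenic and 5.15 kb upstream of the start of PLAUR (ENSG00000011422.12, minus strand).

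The stretches below are shown because they hold the motif matches of the 3 regions, or hold none, and are read from the plus strand of hg38. Capitals mark matches to the κB motif (the NF-κB site) or to the AP-1 motif, TGACTCA or TGAGTCA. The first is 30 bases of the PLAU exon (chr10:73909250-73909279), the second the intron part of the same region (chr10:73909295-73909470). The third lies within the PLAUR region (chr19:43675551-43675800), and the last is the middle of the upstream PLAU region (chr10:73892793-73892992).
PLAU exon with κB match: gacggtccctGGGAATTTCCtgataactaa
PLAU intron with AP-1 match: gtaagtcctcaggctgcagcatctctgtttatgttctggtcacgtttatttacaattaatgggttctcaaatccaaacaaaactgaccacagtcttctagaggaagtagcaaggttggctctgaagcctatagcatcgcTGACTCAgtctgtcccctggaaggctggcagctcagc
PLAUR upstream with AP-1 and κB matches: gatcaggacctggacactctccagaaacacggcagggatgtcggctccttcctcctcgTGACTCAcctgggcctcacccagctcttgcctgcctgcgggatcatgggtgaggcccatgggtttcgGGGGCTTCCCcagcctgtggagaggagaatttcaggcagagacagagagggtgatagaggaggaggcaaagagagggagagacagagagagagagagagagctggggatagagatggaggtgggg
PLAU upstream, no match: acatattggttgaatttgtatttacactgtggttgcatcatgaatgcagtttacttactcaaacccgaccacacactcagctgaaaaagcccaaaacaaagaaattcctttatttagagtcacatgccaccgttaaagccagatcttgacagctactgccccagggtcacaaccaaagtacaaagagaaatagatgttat

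In Ad-GFP cells the region at the PLAU start was the member with by far the most GR signal when IL1B was given with budesonide. Its signal in Ad-IκBαΔN cells was 18.3 with IL1B+Bud, 11.6 with Bud and 7.04 untreated. In Ad-GFP cells it was 172 with IL1B+Bud, 8.88 with Bud and 7.25 untreated. The Ad-GFP value with IL1B+Bud stood far above the other 5, which lay between 7.04 and 18.3. It was higher than in 95.3% of all regions in that group, whereas the Bud value of the same virus was higher than in 30.3%. In Ad-GFP cells the PLAU start was thus a weak GR region with budesonide alone and a strong one with both agents. In Ad-IκBαΔN cells given IL1B+Bud it was higher than only 36.4% of all regions.

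Relative to Bud, IL1B+Bud gave a log2 difference of 0.62 (1.54-fold) at the PLAU start in Ad-IκBαΔN cells and of 4.13 (17.5-fold) in Ad-GFP cells. With the steps divided out the linear signals with IL1B+Bud were 12.2 in Ad-IκBαΔN and 57.4 in Ad-GFP. Over all scalings tried, the difference between IL1B+Bud and Bud ran between 0.07 and 0.62 in Ad-IκBαΔN and between 2.17 and 4.13 in Ad-GFP. Between the viruses, the IL1B+Bud signal was lower in Ad-IκBαΔN by a log2 difference of -3.16, with a range of -3.16 to -1.95 over the scalings. Bud alone differed from NS by 0.65 in Ad-IκBαΔN and by 0.26 in Ad-GFP, and over the scalings these differences ran between -0.72 and 0.65 and between -1.15 and 0.26, so neither kept its sign.

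The upstream PLAU region had lower signals and a smaller difference between the viruses. In Ad-IκBαΔN cells it measured 17.6 with IL1B+Bud, 6.64 with Bud and 6.85 untreated. In Ad-GFP cells it measured 36.2 with IL1B+Bud, 5.37 with Bud and 7.42 untreated. Both IL1B+Bud values stood above the 4 other values, which lay between 5.37 and 7.42. Added IL1B gave log2 differences of 1.29 in Ad-IκBαΔN and 2.55 in Ad-GFP, the second running between 0.58 and 2.55 over the scalings. The log2 difference between viruses with IL1B+Bud was -0.996, just inside 2-fold. With the steps divided out the IL1B+Bud signals were 11.8 in Ad-IκBαΔN and 12.1 in Ad-GFP, so this difference rested on the scale of the groups.

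The PLAUR region differed from the PLAU start in that its IL1B+Bud signal was similar in the 2 viruses. It measured 27.7 with IL1B+Bud, 10.7 with Bud and 11.9 untreated in Ad-IκBαΔN cells, against 33.8, 3.58 and 7.63 in Ad-GFP cells. The lowest of the 6 values was Bud in Ad-GFP, below the untreated cells of either virus. The IL1B+Bud values were the highest of each virus and differed by -0.28 (log2) between Ad-IκBαΔN and Ad-GFP. Over the scalings this difference ran between -0.28 and 0.70 and so had no fixed sign. The signal with IL1B+Bud was higher than in 59.1% of all regions in Ad-IκBαΔN cells and in 32.7% in Ad-GFP cells.

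At PLAUR, added IL1B gave log2 differences of 1.30 (2.46-fold) in Ad-IκBαΔN and 2.93 in Ad-GFP. The ranges over scalings were 0.74 to 1.30 and 0.78 to 2.93, so the gap between the viruses was not kept under every scaling. With Bud alone the region was higher in Ad-IκBαΔN than in Ad-GFP, by a log2 difference of 1.35 that exceeded 99.1% of all regions. Over the scalings that difference stayed above 0, between 0.63 and 1.36. The Ad-GFP signal it was set against, 3.58, was low, above only 9.12% of regions in that group. The 4 neighbouring regions described below differed in the same direction with Bud, by 0.34 to 1.13. In untreated Ad-IκBαΔN cells PLAUR was higher than 98.0% of regions, against 50.6% in untreated Ad-GFP cells. The signals themselves, 11.9 and 7.63, were within 2-fold. Their log2 difference of 0.58 exceeded 80.7% of regions. Untreated signals were low, with medians over all regions of 7.79 in Ad-IκBαΔN and 7.58 in Ad-GFP.

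**Figure D1:**
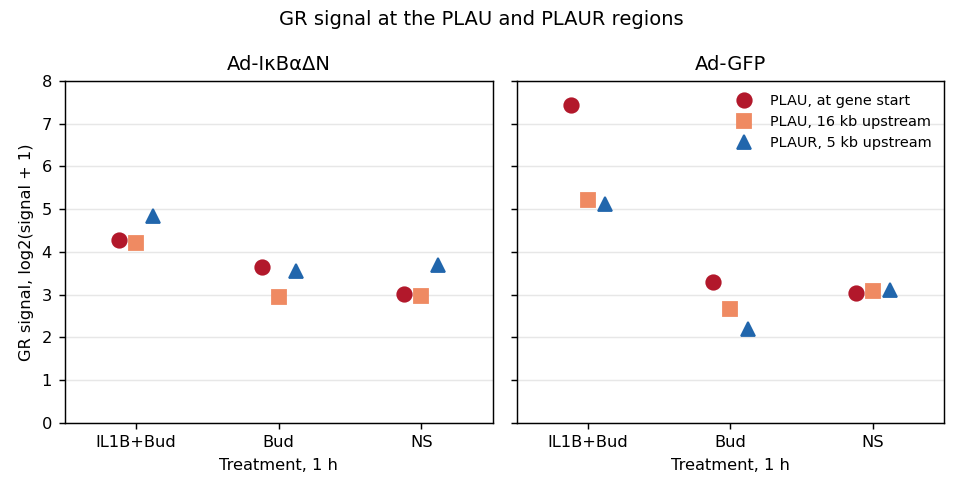
GR signal, as log2(signal + 1), of the 2 PLAU regions and the PLAUR region by treatment in Ad-IκBαΔN cells (left) and Ad-GFP cells (right); each point is the authors' 1 value for a group. The PLAU start in Ad-GFP cells given IL1B+Bud stands apart, while the 3 regions lie close together in Ad-IκBαΔN cells.

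With 3 members a count says little, so each is set beside the share of all regions. With IL1B+Bud against Bud in Ad-GFP, all 3 members were at least 2-fold higher and 0 lower, where 48.9% of all regions were higher and 6.07% lower. In Ad-IκBαΔN the same comparison called 2 of 3 higher and 0 lower, where 9.65% of all regions were higher and 0.94% lower. The 2 were the upstream PLAU and PLAUR regions, which exceeded 97.3% and 97.5% of all regions in this difference, and both were within 2-fold once the steps were divided out. The PLAU start exceeded 94.3% of regions in the Ad-GFP comparison and 72.9% in the Ad-IκBαΔN comparison.

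On the deposited scale all 3 members with budesonide alone were within 2-fold of untreated cells in both viruses. With each group centred on the same median, 2 members in Ad-IκBαΔN and all 3 in Ad-GFP were at least 2-fold lower with Bud. Over all regions, Bud against NS called 59.3% higher and 1.06% lower in Ad-IκBαΔN and 57.9% higher and 8.14% lower in Ad-GFP. The log2 differences at PLAUR were -0.14 in Ad-IκBαΔN and -0.92 in Ad-GFP, and those at the upstream PLAU region were -0.04 and -0.40. Set against NS, IL1B+Bud was at least 2-fold higher at all 3 members in both viruses and lower at 0 on the deposited scale. Once the steps were divided out, 0 members in Ad-IκBαΔN and 1 in Ad-GFP, the PLAU start, were higher. After centring, 5 of these 6 differences turned negative, and the PLAU start in Ad-GFP stayed above 0 at 1.95. All regions gave 69.1% higher and 0.0466% lower in Ad-IκBαΔN and 93.7% higher and 0% lower in Ad-GFP on the deposited scale. With the steps divided out, 5042 of the 10740 regions were higher in Ad-IκBαΔN and 5229 in Ad-GFP, and after centring 1789 and 2072.

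Between the viruses, 0 members were higher and 1, the PLAU start, was lower in Ad-IκBαΔN with IL1B+Bud, where 5.97% of all regions were higher and 46.5% lower. With Bud 1 member, PLAUR, was higher and 0 were lower, where 4.02% of all regions were higher and 0.0186% lower. In untreated cells 0 members were higher or lower, where 7.21% of all regions were higher and 2.77% lower. The effect of added IL1B in Ad-IκBαΔN minus that in Ad-GFP was -3.51 at the PLAU start, -1.26 at the upstream PLAU region and -1.62 at PLAUR (log2), beside a median of -0.84 over all regions. Over the scalings only the first of the 3 kept its sign, between -3.51 and -1.97.

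**Figure D2:**
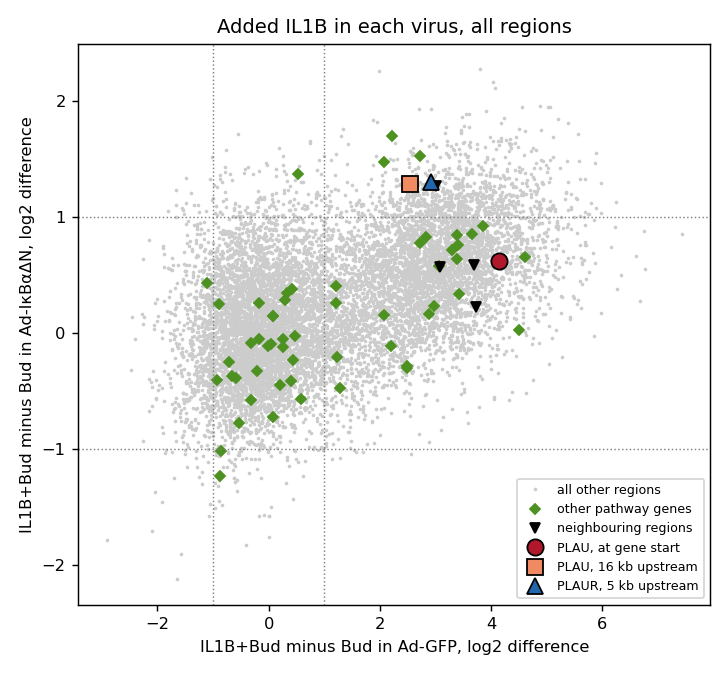
Log2 difference between IL1B+Bud and Bud in Ad-IκBαΔN cells (vertical) against Ad-GFP cells (horizontal) for every region, with the members, the regions near them that are linked to other genes, and the other pathway genes marked; dotted lines mark 2-fold. The PLAU start lies far right and within 2-fold vertically, and the upstream PLAU and PLAUR regions lie above the 2-fold line in both viruses.

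**Figure D3:**
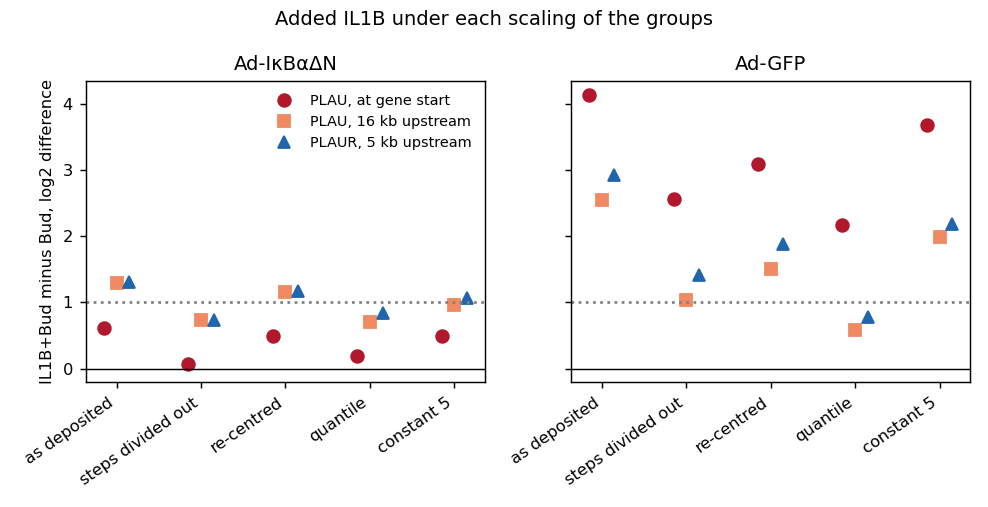
Log2 difference between IL1B+Bud and Bud at the 3 members under the deposited scale and 4 other scalings, in Ad-IκBαΔN (left) and Ad-GFP (right); the dotted line marks 2-fold. The PLAU start stays above 2 in Ad-GFP under each scaling, and all 3 members shift down when the steps are divided out or the groups are quantile normalized.

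The authors had sorted regions into increasing, unchanged and decreasing classes, and the sources used here give no definition of them. Both PLAU regions were in the increasing class, where 93.3% of 4345 regions were at least 2-fold higher with IL1B+Bud than with Bud in Ad-GFP. PLAUR was in the unchanged class, where 28.8% of 3411 regions were, and its log2 difference of 2.93 stood beside a class median of 0.35. In the decreasing class 7.27% of 2984 regions were higher. These shares, when the steps were divided out, were 64.4% in the increasing, 9.97% in the unchanged and 3.79% in the decreasing class, and PLAUR, at 1.42, stood beside a class median of -1.17.

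PLAT and SERPINB2 had no region by the rule, and the regions nearest to them belonged to other genes. The region nearest to the start of PLAT lay 45.1 kb upstream, inside the non-coding gene IKBKB-DT, and was linked to IKBKB, which encodes the kinase IKKβ that marks IκBα for degradation. Its signal was 11.9, 10.1 and 9.44 in Ad-IκBαΔN cells with IL1B+Bud, Bud and NS, against 66.3, 4.08 and 8.77 in Ad-GFP cells. A second region, 63.3 kb from PLAT and 0.305 kb from the IKBKB start, measured 17.4, 11.3 and 8.62 in Ad-IκBαΔN cells and 125, 8.71 and 6.57 in Ad-GFP cells in the same order. Both showed the pattern seen at the PLAU start, with the Ad-GFP value under IL1B+Bud far above the other 5.

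The region nearest to SERPINB2 lay 98.95 kb downstream, at the start of SERPINB8, another clade B serpin gene of the same chromosome 18 cluster. It measured 14.6, 9.52 and 9.38 in Ad-IκBαΔN cells with IL1B+Bud, Bud and NS, against 47.3, 4.68 and 15.3 in Ad-GFP cells. Upstream of PLAU, a region linked to CAMK2G, a calcium/calmodulin kinase gene, lay 20.0 kb from the PLAU start and 14.6 kb from its own. It measured 18.5, 7.12 and 9.03 in Ad-IκBαΔN cells, against 33.2, 3.27 and 4.90 in Ad-GFP cells in that order, values close to those of PLAUR and of the upstream PLAU region. The nearest start does not show which gene a region acts on, and this was not tested.

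**Figure D4:**
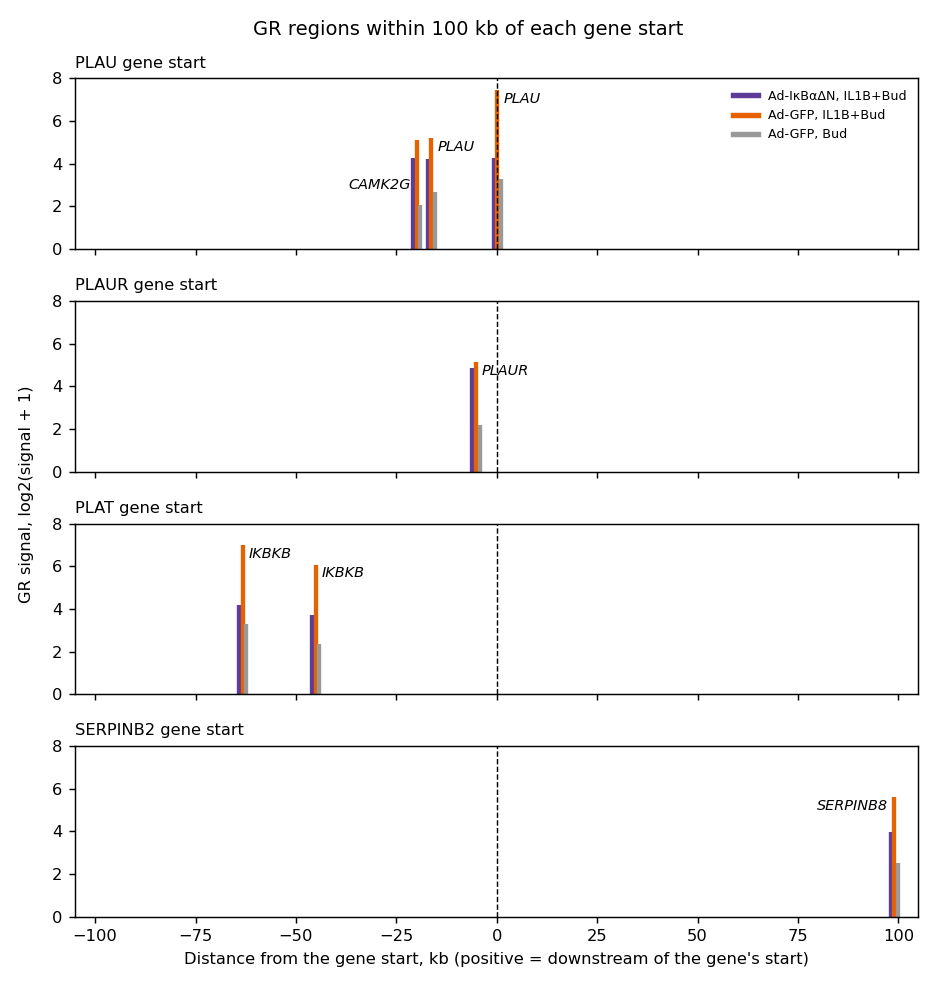
GR regions within 100 kb of the starts of PLAU, PLAUR, PLAT and SERPINB2, by distance in kb from the start along the gene's direction; bars are log2(signal + 1) in Ad-IκBαΔN cells with IL1B+Bud and in Ad-GFP cells with IL1B+Bud and Bud, named by the linked gene. PLAU has a region at its start and another 16.3 kb upstream, and the region 20.0 kb upstream is linked to CAMK2G. The regions near PLAT and SERPINB2 are linked to IKBKB and SERPINB8.

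The members were scanned on both strands for a palindromic GRE, which is AGAACA, 3 free bases and TGTTCT with at most 2 mismatches in the 12 fixed bases. None of the 3 regions held one, and 14.7% of all regions did. The κB motif was found at the PLAU start and in the PLAUR region and in 21.3% of all regions. The PLAU match, GGGAATTTCC, lay at chr10:73909260-73909269, with its first base 10 bp from the middle of the region. The PLAUR match, GGGGCTTCCC, lay at chr19:43675676-43675685, with its first base 24 bp from the middle. An AP-1 match was also present in both and in 22.8% of all regions, and 4.38% of all regions held both motifs. A lone AGAACA was found at the PLAU start and in 41.8% of all regions. The upstream PLAU region held none of these motifs, as did 3204 regions in all. A match describes the letters and shows no binding.

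Among 1262 regions with a κB match whose first base lay within 25 bp of the middle, 98.3% were at least 2-fold higher with IL1B+Bud than with Bud in Ad-GFP. Their median was 3.26 (log2). These became 80.9% and 1.72 with the steps divided out. The PLAU start exceeded 82.4% of these regions and PLAUR 34.5%. In IL1B+Bud cells, 91.3% of the 1262 were at least 2-fold lower in Ad-IκBαΔN than in Ad-GFP and 0.0792% were higher, with a median of -2.06. Steps divided out, 52.4% were lower and 0.555% higher, with a median of -1.06. PLAUR, with its difference of -0.28, lay above 98.6% of them, and the PLAU start above 10.8%. Among the 404 regions within 1 kb of a gene start, 66.6% were higher with IL1B+Bud than with Bud in Ad-GFP, or 48.5% with the steps divided out, and the PLAU start exceeded 89.6% of them. Of the 1580 regions with a GRE, 18.1% were higher, or 8.04% with the steps divided out.

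Other genes of plasminogen activation, fibrinolysis and pericellular proteolysis were taken as a list of 51 genes, of which 20 had a linked region and 55 regions in all. In Ad-IκBαΔN, 4 of the 55 regions (7.27%) were at least 2-fold higher with IL1B+Bud than with Bud and 2 lower, with a median log2 difference of 0.14, beside 9.65% higher, 0.94% lower and a median of 0.26 over all regions. In the list 1 was higher and 8 lower once the steps were divided out, beside 94 higher and 1078 lower of the 10740 regions. In Ad-GFP, 25 regions (45.5%) were higher and 1 lower, with a median of 0.48, beside 48.9% higher, 6.07% lower and a median of 0.92 over all regions. When the steps were divided out, 15 list regions were higher and 28 lower in Ad-GFP with a median of -1.02, beside 3253 higher, 4695 lower and a median of -0.61 over all regions. Between the viruses with IL1B+Bud, 2 regions were higher in Ad-IκBαΔN and 24 lower (43.6%), with a median of -0.70, beside 5.97% higher, 46.5% lower and a median of -0.85 over all regions. With the steps divided out that comparison gave 10 higher and 9 lower with a median of 0.29, beside 2758 higher, 2407 lower and a median of 0.12 over all regions.

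Inhibitors on the list differed among themselves. The values that follow are for each gene's region with the highest signal in Ad-GFP cells given both agents, and SERPINE2 and TFPI2 were named for their large difference there. At SERPINE2, which encodes protease nexin-1, an inhibitor of urokinase and thrombin, signal was 14.1 with IL1B+Bud and 8.60 with Bud in Ad-IκBαΔN, against 130.2 and 4.34 in Ad-GFP. At TFPI2, which encodes a Kunitz inhibitor of plasmin, it was 19.4 and 10.3 in Ad-IκBαΔN, against 71.4 and 4.72 in Ad-GFP, 0.16 kb from the start. At both of these genes, as at the PLAU start, the Ad-GFP value under IL1B+Bud was far above the others given. Picked after their values were seen, the inhibitor genes SERPINI1 and TFPI and the antifibrinolytic carboxypeptidase gene CPB2 differed from Bud by -0.37, -0.09 and -0.39 in Ad-IκBαΔN, against -0.66, -0.32 and -0.59 in Ad-GFP. These are deposited values and depended on the scale. Over the scalings they ran as low as -0.91, -0.67 and -0.95 in Ad-IκBαΔN, and -2.07, -1.87 and -2.06 in Ad-GFP.

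Coagulation, receptor and protease genes of the list also had regions with a large difference in Ad-GFP. F3, which encodes tissue factor, the initiator of clotting, measured 20.1 with IL1B+Bud and 11.9 with Bud in Ad-IκBαΔN, against 65.2 and 5.75 in Ad-GFP. EGFR, the epidermal growth factor receptor gene, had 17.7 and 17.4 in Ad-IκBαΔN, against 265 and 10.7 in Ad-GFP. ITGAV, the αv integrin subunit of the vitronectin receptor, had 31.7 and 26.8 in Ad-IκBαΔN, against 203 and 24.9 in Ad-GFP. The metalloprotease genes MMP13 and MMP10 had log2 differences from added IL1B of 0.92 and 0.84 in Ad-IκBαΔN, against 3.85 and 3.38 in Ad-GFP. Their signals were low. MMP13 measured 6.84 with IL1B+Bud and 3.13 with Bud in Ad-IκBαΔN, against 28.5 and 1.045 in Ad-GFP, where untreated cells had 8.685. MMP10 measured 10.5 and 5.44 in Ad-IκBαΔN, against 41.5 and 3.075 in Ad-GFP. Across these 7 genes the difference ran between 0.02 and 0.92 in Ad-IκBαΔN and between 2.97 and 4.62 in Ad-GFP, and all 7 stayed at least 2-fold in Ad-GFP under every scaling. These 7 were chosen for that size in Ad-GFP, so their being high there is a description. The regions of F3 and TFPI2 lay 0.18 and 0.16 kb from the gene start, and those of MMP13 and MMP10 16.4 and 22.3 kb. Those of ITGAV, EGFR and SERPINE2 lay 45.5, 46.2 and 47.3 kb away, and EGFR had 7 linked regions.

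Counting 1 such region per gene on the deposited scale, 11 of the 20 genes were higher with IL1B+Bud than with Bud in Ad-GFP and 0 lower. Of all 4261 genes with a region, 54.8% were higher. In Ad-IκBαΔN 1 was higher and 1 lower, both singled out after their values were seen, beside 10.9% of all genes higher. The share of all genes lower was not counted, so the lower counts have nothing to be set against. The 0 lower in Ad-GFP did not hold under every scaling, since SERPINI1, TFPI and CPB2 ran down to -2.07, -1.87 and -2.06. The list genes F2R and ANXA2 ran further, to -2.47 and -2.44. ENO1, HGF, F2RL1 and ITGB5 ran down to -1.10, -1.18, -1.28 and -1.48. The 1 gene higher in Ad-IκBαΔN was LRP1, which encodes an endocytic receptor that clears inhibited urokinase, at 1.70. The 1 lower in Ad-IκBαΔN was ANXA2, which encodes a cell-surface plasminogen receptor, at a log2 difference of -1.23. Over the scalings these ran between 1.14 and 1.70 at LRP1 and between -1.81 and -0.91 at ANXA2. In Ad-GFP the deposited differences were 2.22 at LRP1 and -0.87 at ANXA2. ANXA2 had 10 regions, and its leading one measured 104 with IL1B+Bud and 247 with Bud in Ad-IκBαΔN, against 170 and 311 in Ad-GFP. Unlike at PLAU and PLAUR, both budesonide signals were far above those of untreated cells, 10.56 in Ad-IκBαΔN and 14.4 in Ad-GFP.

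**Figure D5:**
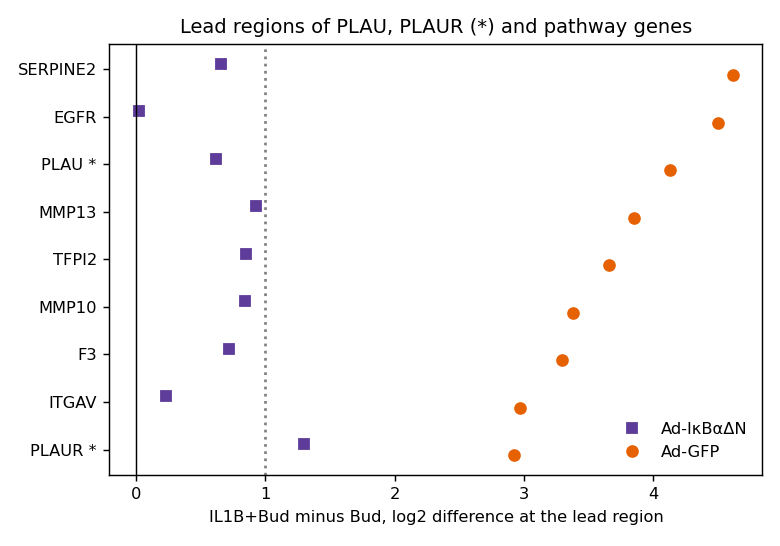
Log2 difference between IL1B+Bud and Bud at the leading region of PLAU and PLAUR (asterisks) and of the 7 pathway genes described, in Ad-IκBαΔN (squares) and Ad-GFP (circles); the dotted line marks 2-fold. PLAUR is the 1 gene shown with a square beyond 2-fold, and in Ad-GFP PLAU lies below SERPINE2 and EGFR and above the other 5 pathway genes.

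The clade B serpin genes around SERPINB2 on chromosome 18 had regions at 5 of 9 genes, 6 regions in all. With IL1B+Bud against Bud, 1 was higher and 0 lower in Ad-IκBαΔN and 3 were higher and 1 lower in Ad-GFP, with median log2 differences of 0.08 and 1.47. With the steps divided out, 0 were higher and 2 lower in Ad-IκBαΔN and 3 were higher and 3 lower in Ad-GFP. Over all regions the deposited shares were 9.65% higher and 0.94% lower in Ad-IκBαΔN and 48.9% and 6.07% in Ad-GFP, and with the steps divided out 0.875% and 10.04% in Ad-IκBαΔN and 30.3% and 43.7% in Ad-GFP. The regions at the starts of SERPINB11 and SERPINB7 differed by 1.04 and 0.59 in Ad-IκBαΔN, against 3.50 and 2.61 in Ad-GFP. SERPINB5 differed by -1.34 in Ad-GFP. SERPINB2 itself, the plasminogen activator inhibitor among them, had no region.

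Over the 6 log2 values, the genes whose leading region lay nearest to that of PLAU were RARRES1 at a Euclidean distance of 0.25, TRPM6 at 0.42 and RPL3 at 0.48, where the median over 4261 genes was 3.03. The RARRES1 region lay 0.32 kb from its start and measured 19.4, 12.9 and 7.84 in Ad-IκBαΔN cells with IL1B+Bud, Bud and NS, against 181, 8.12 and 7.42 in Ad-GFP cells. Nearest to PLAUR were DHX40 at 0.68, HAPSTR1 at 0.71 and SIRPA at 0.83, where the median was 2.93. PLAUR thus had no gene as near to it as the 3 nearest to PLAU.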

How the data were processed

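GR binding at PLAU, PLAUR, PLAT and SERPINB2 was taken from 1 table. Per the labels, A549 cells gave 26 ChIP-seq libraries, 12 GR, 12 RELA and 2 input, with 2 per group from 2 independent experiments. Only the GR groups were used. The deposited values were log2 binding intensities made by the authors, 1 per region and GR group, for 10740 regions, and the table writes Ad-IκBα for Ad-IκBαΔN. Reads belong to build GRCh38 (hg38) per the submitters' processing notes, which list DiffBind 3.2, MACS2 2.2.7.1, Bowtie2 2.4.4, FastQC 0.10.1, SAMtools and bcl2fastq. The sources used here do not give how the intensities were scaled or libraries combined, and depth is unknown.

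Linear signals are 2 raised to the value, minus 1. Times 400 bp they fell on whole steps in 5 of 6 groups, within 0.0001 of a step, for all regions in 4 groups and for 10739 of 10740 in untreated Ad-GFP, where the step was 1. None was found in untreated Ad-IκBαΔN cells. Percentiles rank a region among all regions of the group or comparison. Since no library has its own value, the linear-model test planned for library values was not run, and 2-fold differences were counted, with counts checked on simulated data. Alternatives were dividing out the steps, centring each group on 1 median, quantile normalization, adding 5 in place of 1, and a 50 kb window. Pathway genes were named if the region highest in Ad-GFP IL1B+Bud differed at least 2-fold from Bud, up to 8 by size, of which 1 is not reported here. Members and lists were chosen with earlier results of these data known. Sequences were read from hg38 with pysam 0.24.0, and Python 3.11.15, numpy 2.4.6, pandas 2.3.3 and matplotlib 3.10.9 were used.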

Additional observations from a re-analysis of the deposited data

How the results depend on the processing

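The values have 1 entry per group and no known depth, so leaving out a replicate gave no value and errors are not given. No paired analysis was possible because the table holds no values per library. Of 27 member differences, 9 changed sign under some scaling, and 3 stayed at least 2-fold under each, all at the PLAU start: IL1B+Bud against NS and against Bud in Ad-GFP, and Ad-IκBαΔN against Ad-GFP with IL1B+Bud. The 50 kb window changed no count.

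Counts of members that moved are given next, where a cause beyond the arithmetic of the scaling was not tested. In Ad-IκBαΔN, members higher with IL1B+Bud than NS numbered 3 as deposited and 0 with steps divided out, re-centred, quantile normalized or with 5 added, and 1 was lower after quantile normalization. Those higher than Bud numbered 2 as deposited, 0 with steps divided out or quantile normalized and 1 with 5 added. Those lower with Bud than NS numbered 0 as deposited, 2 re-centred and 1 quantile normalized. In Ad-GFP, members higher with IL1B+Bud than NS numbered 3 as deposited and 1 with steps divided out, re-centred or quantile normalized. Those higher than Bud numbered 3, and 1 quantile normalized. Those lower with Bud than NS numbered 0, 3 re-centred and 1 quantile normalized. Between viruses, 0 members were higher in untreated Ad-IκBαΔN as deposited and 1 quantile normalized, and the 1 higher with Bud became 0 quantile normalized or with 5 added.

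Of the called values, IL1B+Bud against NS changed sign. In Ad-IκBαΔN the re-centred log2 differences were -0.22 at the PLAU start, -0.24 upstream of PLAU and -0.33 at PLAUR, and -1.82 at PLAUR quantile normalized. In Ad-GFP they were -0.30 re-centred and -0.32 quantile normalized upstream of PLAU, and -0.43 and -0.52 at PLAUR.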
